A study of Bos taurus with 6 samples.

Results

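CDX2, GATA2, GATA3, TFAP2A, HAND1, ELF3 and ELF5 are 7 transcription factors of the trophectoderm and trophoblast, and their RNA was followed in bovine embryonic stem cells (bESCs) grown on 2 kinds of feeder layer. The genes were found by symbol in a deposited table of length-scaled values and by Entrez identifier in the deposited count table, and all 7 of them were present among the 19163 genes of the count table. F7 is a single bESC line derived from in vitro fertilized embryos, labelled Holstein Friesian. MC-F7 was F7 grown on mouse embryonic fibroblasts (MEFs) from C57 mice whose division had been stopped with mitomycin C, and MT-F7 was F7 grown on C57 MEFs fixed with methanol, which kills them. Each group had 3 libraries, taken after 15 passages. Both groups were kept in the same medium, which contains FGF and IWR1, an inhibitor of WNT signalling, so neither group is free of these agents. The medium was changed every day for MC-F7 and every other day for MT-F7, and an effect of this schedule cannot be told apart from that of the feeders. Cells in suspension after a short time on gelatin were taken for RNA, which is a step that removes feeder cells. The statistics of the study are described as averages of technical replicates, and no source used here says that libraries of 1 group were separate cultures, so the p values below may cover technical spread only.

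The trophectoderm is the outer epithelium of the blastocyst and forms the fetal part of the placenta, while the epiblast forms the embryo and is the source of embryonic stem cells. In the outer cells, low Hippo signalling lets YAP1 enter the nucleus and bind TEAD4, which turns on CDX2 and GATA3. AP-2, GATA and ETS factors then hold the trophoblast state, and in cattle the trophectoderm secretes interferon tau, the signal of pregnancy to the mother.

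The libraries held 21958386 to 24933430 counted reads each. A detection floor of 3 counts per library was used, equal to 0.12 to 0.137 CPM (counts per 1000000 counts). Such floors, and the intervals below, cover counting error only. Genes of the mitochondrial genome took 16.3 to 28.3% of the counts in MC-F7 and 18.0 to 27.9% in MT-F7, and replicate 3 had the highest share in each group. The epiblast factor POU5F1 had 17646 to 32924 counts in MC-F7 and 11449 to 13986 in MT-F7, so this defining marker of the labelled cell type was present in all 6 libraries. RNA-seq of bulk cultures cannot tell fewer cells of a type from less RNA per cell.

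The 7 factors fell into 3 classes by detection. CDX2 and HAND1 were at the floor in both groups, ELF5 and GATA3 had a few counts in some libraries, and GATA2, TFAP2A and ELF3 were above the floor in every library. Only these last 3 genes passed the filter on low counts and were tested. GATA2 was lower in MT-F7, and TFAP2A and ELF3 did not pass the test. This 1 called gene of 3 tested compares with 23.2% of all 13001 tested genes called in either direction and 11.3% called lower, in edgeR's quasi-likelihood test with Benjamini-Hochberg adjustment over all tested genes and a threshold of 0.05. The summed level of all 7 genes was 6.15 to 7.93 CPM in MC-F7 and 6.10 to 8.82 CPM in MT-F7, and most of it was ELF3.

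**Figure D1:**
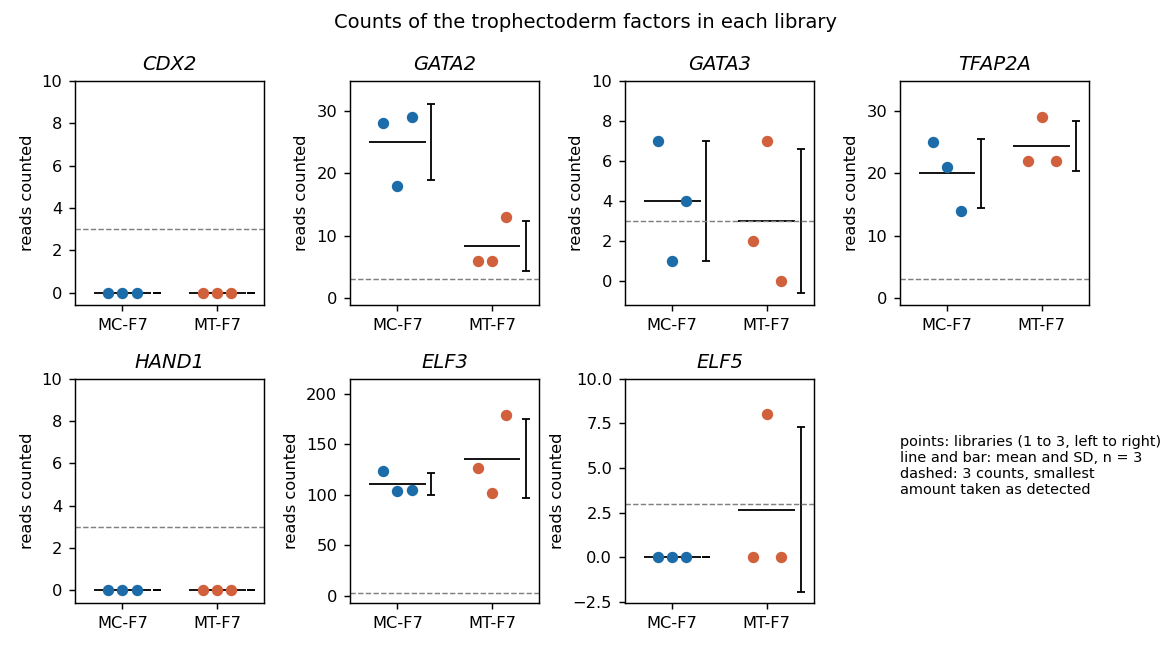
Counts of the 7 trophectoderm factors in each library, with counts on a linear vertical axis of its own for each gene, points for libraries, lines for the group mean, bars for the SD (n = 3 libraries per group) and a dashed line at the floor of 3 counts. CDX2 and HAND1 stayed at 0, and GATA2 was the gene whose MT-F7 libraries (6, 6 and 13 counts) all sat below its MC-F7 libraries (28, 18 and 29 counts).

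CDX2 (Entrez gene 618679) is a homeobox factor that opposes POU5F1 in the trophectoderm of the mouse, and it is the usual marker of this lineage. It had 0 counts in MC-F7 replicates 1, 2 and 3 and 0 counts in MT-F7 replicates 1, 2 and 3. No library of either group was thus above the other. Pooled over each group, 0 counts gave exact Poisson intervals with an upper bound of 0.0539 CPM in MC-F7 and 0.0498 CPM in MT-F7. The floor of 3 counts, set over the same pooled reads, equals 0.0438 CPM in MC-F7 and 0.0405 CPM in MT-F7. Set over the reads of all 6 libraries, it equals 0.021 CPM. CDX2 was listed at 0 in the length-scaled table too, where 4457 of 21357 genes (20.9%) were at 0 in all libraries. A difference in CDX2 was not detectable at this depth. The study also designed a pair of RT-PCR primers for CDX2, of 20 bases each, which are shown because they are the study's own probe for this marker. RT-PCR values were not analysed here.
CDX2 forward primer, 5′ to 3′: ctcctggacaaggacgtgag
CDX2 reverse primer, 5′ to 3′: acatggtatccgccgtagtc

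HAND1 (Entrez gene 517952), a basic helix-loop-helix factor of trophoblast giant cells in the mouse and of heart and extraembryonic mesoderm, was likewise at 0 counts in all 3 MC-F7 and all 3 MT-F7 libraries. Its limits are those given for CDX2.

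GATA3 (Entrez gene 505169), a zinc finger factor that acts downstream of TEAD4 in the trophectoderm, had 7, 1 and 4 counts in MC-F7 replicates 1 to 3, and 2, 7 and 0 counts in MT-F7 replicates 1 to 3. The highest MC-F7 and MT-F7 libraries had the same count, and the groups overlapped. It was above the floor in 2 MC-F7 libraries and in 1 MT-F7 library. The mean level was 0.176 ± 0.131 CPM on mitomycin C-treated feeders and 0.120 ± 0.145 CPM on fixed feeders (SD, n = 3). The counts pooled over each group gave exact Poisson intervals of 0.0906 to 0.306 CPM in MC-F7, and 0.0555 to 0.230 CPM in MT-F7, which overlapped. GATA3 did not pass the filter, and in edgeR's fit without a filter its log2 fold change was -0.56 ± 1.16 (SE), with an adjusted p of 0.78.

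ELF5 (Entrez gene 539420), an ETS factor that marks trophoblast stem cells in the mouse, had 0 counts in all 3 MC-F7 libraries and 0, 8 and 0 counts in MT-F7 replicates 1 to 3. All of its reads came from 1 library. It was at the floor in MC-F7, where 0 counts gave an exact Poisson interval with an upper bound of 0.0539 CPM. The pooled MT-F7 level was 0.108 CPM, with an exact Poisson interval of 0.0466 to 0.213 CPM, and the intervals overlapped. The interval treats the reads as spread over the group, whereas without MT-F7 replicate 2 the group had 0 counts as well. ELF5 was not tested, and in edgeR's fit without a filter it had an adjusted p of 0.21.

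GATA2 (Entrez gene 506809), a zinc finger factor of trophoblast that is also needed in blood stem cells and endothelium, was the 1 called factor of the 3 tested. It had 28, 18 and 29 counts in MC-F7 replicates 1 to 3, and 6, 6 and 13 counts in MT-F7 replicates 1 to 3. Every MT-F7 library was below every MC-F7 library, whereas 40% of all tested genes had groups that did not overlap in TMM-scaled CPM and 20.1% had all MT-F7 libraries lower. The level was 1.10 ± 0.293 CPM on mitomycin C-treated feeders and 0.339 ± 0.170 CPM on fixed feeders (SD, n = 3). The log2 fold change of GATA2 was -1.70 ± 0.512 (SE), with a 95% interval of -2.81 to -0.59 and an adjusted p of 0.029 by edgeR's quasi-likelihood test. Among tested genes with a mean under 2 CPM in both groups, as GATA2 had, 14.3% were called in either direction and 7.66% were called lower. An exact permutation test of 3 against 3 libraries cannot give a p below 0.1.

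The GATA2 call depended on single libraries. Its log2 fold change ran from -2.22 to -1.48 when each library was left out in turn, so its sign did not turn. The call was kept without MC-F7 replicate 2 (adjusted p = 0.041) and without MT-F7 replicate 3 (adjusted p = 0.019). It was lost without MC-F7 replicate 1 (adjusted p = 0.074), MC-F7 replicate 3 (0.074), MT-F7 replicate 1 (0.111) or MT-F7 replicate 2 (0.110). Leaving out replicate 3 of both groups together, an alternative chosen after seeing the data, kept GATA2 among the called genes.

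**Figure D2:**
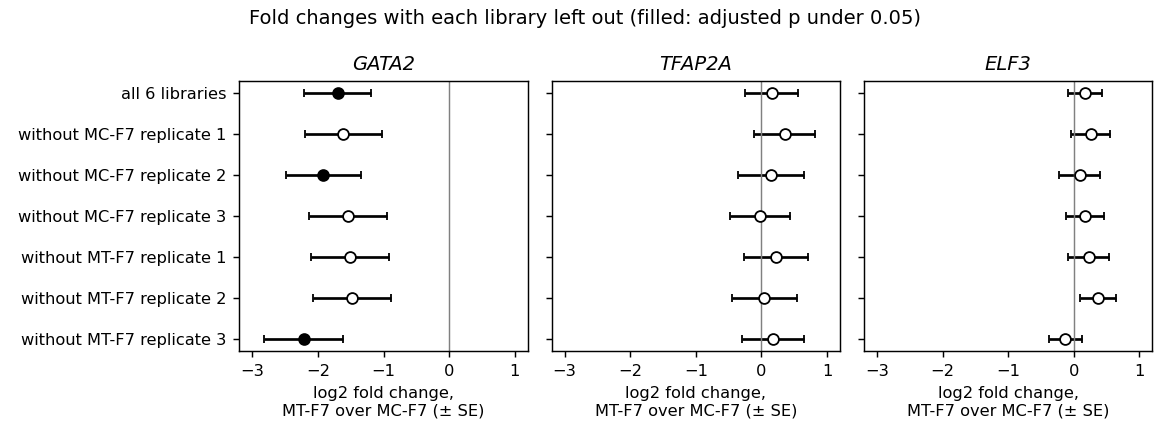
Log2 fold change (MT-F7 against MC-F7, horizontal axis) of GATA2, TFAP2A and ELF3 with all libraries and with each library left out, as points with bars of 1 SE, from edgeR's quasi-likelihood fits. GATA2 stayed between -2.22 and -1.48, while TFAP2A (-0.018 to 0.35) and ELF3 (-0.13 to 0.37) lay on both sides of 0.

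TFAP2A (Entrez gene 505849), an AP-2 factor of trophoblast that also works in surface ectoderm and neural crest, had 25, 21 and 14 counts in MC-F7 replicates 1 to 3, and 22, 29 and 22 counts in MT-F7 replicates 1 to 3. The groups overlapped. The level was 0.873 ± 0.224 CPM on mitomycin C-treated feeders and 0.984 ± 0.156 CPM on fixed feeders (SD, n = 3). The log2 fold change was 0.15 ± 0.403 (SE), with a 95% interval of -0.72 to 1.03 and an adjusted p of 0.82 by edgeR's quasi-likelihood test. The sign turned (-0.018) without MC-F7 replicate 3.

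ELF3 (Entrez gene 508503), an ETS factor of epithelia, was the most abundant of the 7 factors. It had 123, 104 and 105 counts in MC-F7 replicates 1 to 3, and 126, 102 and 179 counts in MT-F7 replicates 1 to 3. MT-F7 replicate 3 stood above all others, and the remaining MT-F7 libraries lay within 3 counts of the MC-F7 range. The level was 4.85 ± 0.450 CPM on mitomycin C-treated feeders and 5.51 ± 1.69 CPM on fixed feeders (SD, n = 3). The log2 fold change was 0.17 ± 0.264 (SE), with a 95% interval of -0.40 to 0.75 and an adjusted p of 0.68 by edgeR's quasi-likelihood test. Without MT-F7 replicate 3 the log2 fold change was -0.13, with an adjusted p of 0.74.

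Levels of different genes were compared on the deposited length-scaled values, which the authors call TPM but which add up to 154763 to 164394 per library and not to 1000000. These values were not scaled to library size, so they were used to compare genes within a group and not the groups. On this scale the level of ELF3 was 0.372 ± 0.0360 for MC-F7 and 0.456 ± 0.133 for MT-F7 (SD, n = 3), and 55.3% of all genes in the table had a lower mean. Its level was close to those of TEAD4, the partner of YAP1, which were 0.418 ± 0.0435 in MC-F7 and 0.526 ± 0.0941 in MT-F7. In MC-F7 the order of levels was ELF3, GATA2 (0.0589 ± 0.0143), TFAP2A (0.0437 ± 0.0122), GATA3 (0.0152 ± 0.0114), with CDX2, HAND1 and ELF5 listed at 0. GATA2 and TFAP2A overlapped in this group, and the lowest TFAP2A library was above the highest GATA3 library. In MT-F7 the order was ELF3, TFAP2A (0.0532 ± 0.00883), GATA2 (0.0196 ± 0.00952), GATA3 (0.0114 ± 0.0137), ELF5 (0.00713 ± 0.0124), with CDX2 and HAND1 listed at 0. TFAP2A was above GATA2 in every MT-F7 library, whereas the ranges of GATA2, GATA3 and ELF5 overlapped. For comparison, POU5F1 was at 230 ± 70.9 in MC-F7 and 109 ± 11.4 in MT-F7 on the same scale. The mean level over all 6 libraries exceeded that of 36.2% of genes for GATA2, 37.7% for TFAP2A, 30.0% for GATA3 and 24.8% for ELF5.

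**Figure D3:**
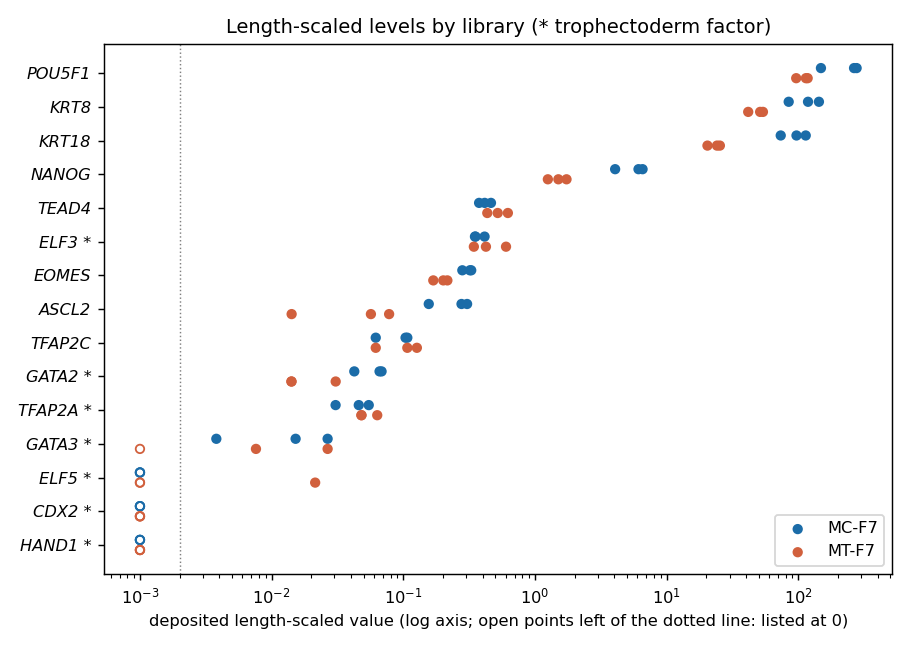
Deposited length-scaled values of the 7 factors and of reference genes on a log10 horizontal axis, with 1 point per library coloured by group and open points left of the dotted line for libraries listed at 0, which a log axis cannot place. ELF3 lay near TEAD4 (means of 0.372 and 0.418 in MC-F7), and all detected factors, ELF3 included, lay far below POU5F1 (230 in MC-F7). The values are not scaled to library size.

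The genes whose profile over the 6 libraries was most like that of each tested factor were ranked by Pearson's r on log2 (TMM CPM + 1), among 11934 or 11935 genes whose mean reached 1 CPM, as a description only, because the libraries share groups and depth. For GATA2 they were TMEM145 (r = 0.995), RNF208 (r = 0.991) and TRMT2A (r = 0.991). For TFAP2A they were LOC780968 (r = 0.991), TRMT112 (r = 0.990) and RTCB (r = 0.984). For ELF3 they included NUDCD3 (r = 0.980) and TSC22D4 (r = 0.979).

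No close relative of the 7 factors passed the main test. Of 14 relatives with a row of counts, 4 passed the filter, and edgeR called 0 of these at an adjusted p under 0.05, as did DESeq2 and limma, while 3 had an unadjusted p under 0.05. Their median log2 fold change was 0.45, against -0.0026 for all tested genes. GATA4 and EHF had 0 counts in all 6 libraries, and CDX1 had 2 counts in 1 MT-F7 library. CDX4, a paralog of CDX2, had 13, 5 and 8 counts for MC-F7 and 5, 8 and 0 counts for MT-F7, which overlapped. TFAP2B, a paralog of TFAP2A named after its values were seen, had 0, 3 and 0 counts for MC-F7 and 10, 8 and 4 counts for MT-F7. All its MT-F7 libraries were higher, but it did not pass the filter. In edgeR's fit without a filter its log2 fold change was 2.62, with an adjusted p of 0.14. TFAP2C, an AP-2 factor shared by trophoblast and pluripotent cells, had 32, 33 and 19 counts for MC-F7 and 33, 39 and 19 counts for MT-F7. Its log2 fold change was -0.017 ± 0.395 (SE), with an adjusted p of 0.98 in edgeR's test. The sign was kept with RLE factors and turned with library size only and in some other fits. The 3 genes with an unadjusted p under 0.05, named after their values were seen, were the ETS factors ELF1 (log2 fold change 0.92, adjusted p = 0.066), ELF4 (1.62, adjusted p = 0.058) and ELF2 (-0.36, adjusted p = 0.10) in edgeR's test. ELF1 and ELF4 each passed the threshold in 1 of 6 fits with a library left out. With a replicate block 3 of the 4 tested relatives were called. Without replicate 3 of both groups, a setting chosen after seeing the data, 2 of 4 were called.

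Upstream of the 7 factors, all 13 listed regulators were tested, and 3 rose and 1 fell in MT-F7 (30.8% called, against 23.2% of all tested genes), with a median log2 fold change of 0.21 against -0.0026 for all tested genes. TEAD4 had 96, 86 and 78 counts for MC-F7 and 90, 108 and 129 counts for MT-F7. It thus overlapped between the groups, with a log2 fold change of 0.21 ± 0.248 (SE) and an adjusted p of 0.59. YAP1 had 55, 81 and 57 counts for MC-F7 and 134, 106 and 80 counts for MT-F7. Its highest MC-F7 library (81 counts) was above its lowest MT-F7 library (80 counts) in counts, as it was in CPM, so the groups overlapped before the TMM factors (edgeR's scaling of library sizes) were applied. Its log2 fold change of 0.60 ± 0.270 did not pass (adjusted p = 0.13). WWTR1, the paralog of YAP1 also called TAZ, rose by 1.55 ± 0.364 on the log2 scale (adjusted p = 0.0081), from 21, 16 and 19 counts to 47, 82 and 52 counts, and the call was lost without MT-F7 replicate 2 (adjusted p = 0.054). AMOT, which holds YAP1 at cell junctions, rose by 1.04 ± 0.241 (adjusted p = 0.0076). TBX3, a T-box factor of pluripotent and extraembryonic cells, had 3, 6 and 0 counts for MC-F7 and 35, 53 and 37 counts for MT-F7, a log2 fold change of 3.62 ± 0.627 (adjusted p = 0.0012). ETS2, an ETS factor that drives interferon tau in cattle, had a log2 fold change of -0.79 ± 0.156 (adjusted p = 0.0030), from 73.7 ± 10.2 to 43.1 ± 4.73 CPM (SD, n = 3). All p values here are from edgeR's quasi-likelihood test with Benjamini-Hochberg adjustment.

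Among 17 later factors of the trophoblast, 12 were tested, of which 2 rose and 3 fell in MT-F7 (41.7% called). Their median log2 fold change was -0.40. Over all tested genes 23.2% were called, with a median of -0.0026. EOMES, a T-box factor of mouse trophoblast stem cells and of mesendoderm, had 129, 132 and 113 counts for MC-F7 and 81, 87 and 68 counts for MT-F7. All MT-F7 libraries were lower, and the log2 fold change was -0.80 ± 0.223 (adjusted p = 0.021), which was lost without MC-F7 replicate 2, MT-F7 replicate 1 or MT-F7 replicate 2 (highest adjusted p = 0.075). ASCL2, a basic helix-loop-helix factor of trophoblast progenitors, had 22, 39 and 43 counts for MC-F7 and 8, 11 and 2 counts for MT-F7, and its log2 fold change was -2.43 ± 0.541 (adjusted p = 0.0060). OVOL1, a zinc finger factor of trophoblast and skin, fell by 0.90 on the log2 scale (adjusted p = 0.033), and the call was lost in 4 of 6 fits with a library left out, those without MC-F7 replicate 2 or 3 or MT-F7 replicate 1 or 2 (highest adjusted p = 0.153). DLX5, a homeobox factor, rose from 2.95 ± 0.387 to 48.3 ± 13.5 CPM, a log2 fold change of 4.01 ± 0.225 (adjusted p = 5.9e-07). ID2, an inhibitor of basic helix-loop-helix factors, rose from 14.8 ± 2.10 to 93.5 ± 29.1 CPM, a log2 fold change of 2.64 ± 0.217 (adjusted p = 4.2e-06). GCM1, the factor of syncytiotrophoblast, had 0 counts in all 6 libraries. The number of called genes in this list was 3 to 7 of those tested when each library was left out, and it was 3 without MC-F7 replicate 2, MT-F7 replicate 1 or MT-F7 replicate 2. The p values are from edgeR's quasi-likelihood test.

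Of 26 trophoblast products and epithelial genes, 15 were tested, of which 3 rose and 6 fell (60% called, against 23.2% of all tested genes), with a median log2 fold change of -0.35. Of the products of the bovine trophoblast, 5 were not detected. CSH2 and PRP1 (placental lactogen and a prolactin relative), PAG11 (a pregnancy-associated glycoprotein), TKDP1 (a trophoblast Kunitz domain protein) and CYP19A1 (aromatase) had 0 counts in all 6 libraries. IFNT2, an interferon tau gene, had 3, 0 and 2 counts in MC-F7 and 0 counts in all 3 MT-F7 libraries, while IFNT, another copy, was listed in the length-scaled table at 0 in all MC-F7 libraries and at 0.0155, 0 and 0.00775 in MT-F7 replicates 1 to 3. Since the interferon tau genes are near-identical copies, these values are uncertain. PAG1, a further pregnancy-associated glycoprotein, had 2, 4 and 3 counts for MC-F7 and 12, 2 and 3 counts for MT-F7, and PAG2 had 1 count in 1 MT-F7 library. SSLP1, also on the list of products, was detected in every library, with 51, 63 and 60 counts for MC-F7 and 40, 42 and 45 counts for MT-F7 (log2 fold change -0.58, adjusted p = 0.17). IFNT, PAG1, PAG2 and SSLP1 were named after their values were seen. Most called genes of the list were epithelial genes that other cells express too. KRT7 fell from 63.5 ± 13.4 to 6.31 ± 0.700 CPM, a log2 fold change of -3.34 ± 0.198 (adjusted p = 6.4e-07). KRT8 and KRT18, a keratin pair of simple epithelia, had log2 fold changes of -1.37 ± 0.194 (adjusted p = 0.00027) and -2.15 ± 0.179 (adjusted p = 4.6e-06). CDH1, E-cadherin, fell from 369 ± 49.5 to 98.7 ± 9.79 CPM (log2 fold change -1.92, adjusted p = 5.2e-06). DAB2, an endocytic adaptor, rose by 2.23 ± 0.262 on the log2 scale (adjusted p = 6.6e-05), and LRP2, an endocytic receptor, rose by 1.33 ± 0.219 (adjusted p = 0.00085). TJP1, a tight junction protein, rose by 0.55 ± 0.162 (adjusted p = 0.026), a call lost without MC-F7 replicate 2, MC-F7 replicate 3 or MT-F7 replicate 2 (highest adjusted p = 0.122). The p values are from edgeR's quasi-likelihood test. The summed level of the list was 2731 to 3984 CPM in MC-F7 and 1313 to 1532 CPM in MT-F7. Most of it was KRT8, KRT18, KRT19 and CDH1, and not the trophoblast products. Without KRT8, the most abundant gene, it was 1645 to 2230 CPM in MC-F7 and 829 to 952 CPM in MT-F7.

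**Figure D4:**
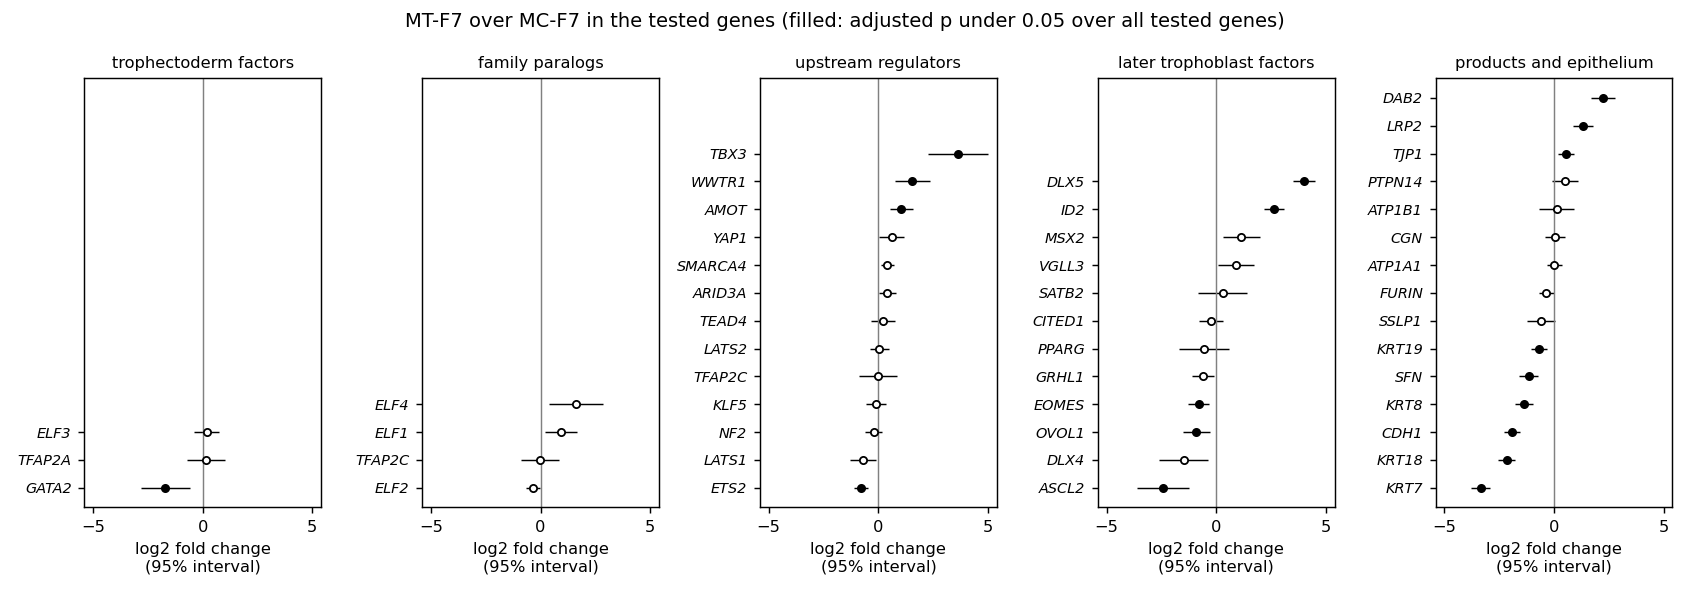
Log2 fold changes (MT-F7 against MC-F7, horizontal axis) with 95% intervals from edgeR for the tested trophectoderm factors, their relatives, upstream regulators, later factors, and trophoblast products and epithelial genes, with filled points for an adjusted p under 0.05. GATA2 (-1.70) was the filled point among the factors, TFAP2A (0.15) and ELF3 (0.17) lay near 0, and called genes of the other lists lay on both sides, from KRT7 (-3.34) to DLX5 (4.01).

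The 7 factors are not particular to trophoblast, so markers of other cells were measured beside them. The shares called in these lists compare with 23.2% of all tested genes, and their medians with -0.0026. For GATA2, of 10 blood and endothelial genes 6 were tested, 3 rose and 1 fell (66.7% called, median log2 fold change 0.38), and their summed level was 11.3 to 14.4 CPM in MC-F7 and 29.0 to 32.9 CPM in MT-F7. No gene of this list was at 0 in all libraries. TEK (log2 fold change 2.32, adjusted p = 7.5e-06), LMO2 (1.85, adjusted p = 6.2e-05) and KDR (1.06, adjusted p = 0.0046) rose in edgeR's test, the opposite direction to GATA2. SPI1, a factor of myeloid cells, was lower in MT-F7 as GATA2 was, with 46, 45 and 24 counts in MC-F7 and 0, 0 and 2 counts in MT-F7. SPI1 was thus at the floor in MT-F7. LYL1 (log2 fold change -1.69, adjusted p = 0.14) and TAL1 (-0.31, adjusted p = 0.69) were also lower but not called in edgeR's test. In the fit without a filter RUNX1 (-1.66) and GATA1 (-1.42) were lower and PECAM1 (1.02) and CDH5 (0.68) higher, with none called. LYL1, TAL1, RUNX1, GATA1, PECAM1 and CDH5 were named after their values were seen.

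For TFAP2A, 14 surface ectoderm and amnion genes and 9 neural crest genes were examined. Their shares called compare with 23.2% of all tested genes, and their medians with a log2 fold change of -0.0026. Of 6 tested surface ectoderm and amnion genes DLX5 rose and IGFBP3, which codes for a binding protein of insulin-like growth factors, fell (log2 fold change -1.10, adjusted p = 0.00040), with 33.3% called and a median of 0.42. Their summed level was 1428 to 1721 CPM in MC-F7 and 758 to 839 CPM in MT-F7, and was mostly IGFBP3. Without IGFBP3 it was 7.09 to 8.15 CPM in MC-F7 and 43.2 to 70.4 CPM in MT-F7, the opposite direction. That rise was mostly DLX5, which went from a mean of 2.95 to 48.3 CPM, and no other gene of the list was called higher. Of 8 tested neural crest genes 3 rose and 1 fell (50% called), with a median of 0.63. Their summed level was 17.2 to 18.5 CPM in MC-F7 and 19.6 to 24.6 CPM in MT-F7. Without SOX9, the most abundant of them on average over all libraries, it was 13.7 to 15.6 CPM in MC-F7 and 13.3 to 17.9 CPM in MT-F7, which overlapped. PAX3 (7, 9 and 0 counts for MC-F7, 47, 94 and 74 counts for MT-F7, adjusted p = 0.00092), NGFR (log2 fold change 2.20, adjusted p = 0.00089) and SOX9 (0.89, adjusted p = 0.025) were higher. The SOX9 call was lost without MC-F7 replicate 1, MT-F7 replicate 1 or MT-F7 replicate 2 (highest adjusted p = 0.090). FOXD3, which works in neural crest and in pluripotent cells, was lower (log2 fold change -2.49, adjusted p = 5e-05). It was the most abundant gene of the list in MC-F7. Its mean went from 6.53 to 1.17 CPM, which lowered the summed levels of the list in MT-F7. The p values are from edgeR's quasi-likelihood test.

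For HAND1, 11 mesoderm genes were examined, and 9 hypoblast and endoderm genes were added as markers of another lineage. Over all tested genes 23.2% were called, with a median log2 fold change of -0.0026. Of 6 tested mesoderm genes 3 rose (MESP2, log2 fold change 2.18, KDR, and BMP4, 0.94) and EOMES fell (66.7% called), with a median of 0.82 and a summed level of 27.7 to 29.1 CPM in MC-F7 and 43.0 to 52.2 CPM in MT-F7. Of 3 tested hypoblast and endoderm genes APOA1, an apolipoprotein, rose (log2 fold change 1.11) and FOXA2 fell (-3.26), which is 66.7% called, with a median of 0.22. AFP and GATA4 were at 0 in all libraries, and the summed level was 123 to 203 CPM in MC-F7 and 333 to 359 CPM in MT-F7, nearly all of it APOA1. Without APOA1 it was 6.10 to 8.24 CPM in MC-F7 and 2.05 to 2.51 CPM in MT-F7, the opposite direction. That fall was mostly FOXA2, which went from a mean of 4.80 to 0.501 CPM. The calls are from edgeR's quasi-likelihood test.

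Epiblast and fibroblast genes were also measured. Of 8 tested epiblast genes 6 fell and none rose (75% called, against 23.2% of all tested genes), with a median log2 fold change of -1.20 and a summed level of 1468 to 2128 CPM in MC-F7 and 844 to 1031 CPM in MT-F7. ZFP42 (-2.73), CRIPTO (-2.65), NANOG (-2.02), DNMT3B (-1.20) and POU5F1 (-1.19) were among them. Of 12 tested fibroblast genes 6 rose and none fell (50% called), with a median of 0.59 and a summed level of 464 to 604 CPM in MC-F7 and 1037 to 1277 CPM in MT-F7. ACTA2 (log2 fold change 1.86), COL3A1 (1.65), FBLN1 (1.60) and POSTN (1.24) were the most changed of them, and the POSTN call was lost without MT-F7 replicate 2 (adjusted p = 0.059). The share of these reads that came from mouse feeder cells cannot be read from gene counts, and alignment rates were not analysed here. The part of these marker levels, and of the epiblast and other lists above, in the lower GATA2 of MT-F7 was not tested.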

How the data were processed

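RNA-seq of F7 cells on mitomycin C-treated (MC-F7, labelled 1M) and methanol-fixed (MT-F7) feeders was used, 3 libraries each. The authors aligned reads with HISAT2 2.0.5, counted them with featureCounts 1.5.0-p3 and deposited raw counts per gene. The genome build is not given in the sources used here. The authors also deposited values they call TPM, which gave the same profile over the libraries as the counts for all 7 factors. All rows of the count table name a gene, 89 of them by identifier only.

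R 4.3.3 and edgeR 4.0.16 were used, and filterByExpr (at least 10 counts, total of at least 15) retained 13001 genes. Library sizes were scaled by TMM (factors 0.971 to 1.04). The groups were tested against each other with the two-sided quasi-likelihood test of edgeR, with no block, and Benjamini-Hochberg adjustment was over all retained genes (threshold 0.05). Fold changes are MT-F7 over MC-F7. Per-group means and SDs are of CPM from total counts. A gene was at the floor in a group with at most 3 counts in every library. Tables were made with Python 3.11.15 and pandas 2.3.3. The steps were tested on simulated data. No 2 replicates agreed within sampling noise (chi-square per degree of freedom 25.4 to 126).

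Besides the 7 factors, genes were named from each list if called, at 1 CPM or more in the higher group and among the 4 largest changes in a direction, or if they define the trophectoderm or epiblast, and the 3 most alike genes were taken per tested factor, of which 1 is not reported here. The factors and lists (135 of 145 symbols matched the count table) were chosen with earlier results of these data known. Lists were described and not tested. Alternatives were RLE factors, library size only, DESeq2 1.42.0, 2 other filters on low counts, a replicate block, removal of mitochondrial genes, each library left out, and limma 3.58.1 on the deposited values with pseudocounts of 1 and 0.1 or a minimum mean of 1.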

Additional observations from a re-analysis of the deposited data

How the results depend on the processing

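At 6 to 29 counts, GATA2 rests on few reads. Over 15 alternatives its direction was kept in all of them and its call in 10, with adjusted p values of 0.015 to 0.111. With limma on log2(value + 1) it was -0.054 (adjusted p = 0.052), and the call was also lost in 4 of the 6 fits with a library left out (-2.22 to -1.48). With at least 10 counts in every library, and in limma with a mean value of at least 1, GATA2 was not tested. The number of called factors was therefore 0 under these 3 settings, and 0 to 1 with a library left out. TFAP2A and ELF3 were called in 0 of 16 alternatives. TFAP2A ran from -0.018 to 0.35 with a library left out. ELF3 ran from -0.13 to 0.37, and was -0.10 without replicate 3 of both groups, a setting chosen after seeing the data. TFAP2C turned sign with library size only (0.0022), limma with pseudocounts of 1 (0.0098) and 0.1 (0.051), without replicate 3 of both groups (0.036) and with a library left out (-0.20 to 0.20).

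Over all genes, 3016 were called, 1399 by limma on genes with a mean value of at least 1, and 1914 to 3093 with a library left out, the fewest without MC-F7 replicate 2, and 4242 without replicate 3 of both groups. Of all calls 51.5% were higher in MT-F7, against 65.4%, 65.2% and 67.8% with limma at pseudocounts of 1 and 0.1 and at a mean of at least 1. The deposited values used by limma were not scaled to library size. They were a fixed multiple of the counts in 9681 of 9682 genes compared. MT-F7 libraries held 1.08 times the counts of MC-F7 libraries on average, and the limma fits did not correct for it. The part of this depth difference in the limma shares was not tested. No setting moved the median of all genes by more than 0.083 (log2). Of the listed genes without the 7 factors, 43 of 86 were called, 22 by limma at a mean of at least 1, and 36 to 48 with a library left out. Of the other named genes, 676 of their values under an alternative kept direction and side of the threshold, 24 lost a call and 7 gained one.

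A replicate block gave 4674 called genes, GATA2 was -1.73 (adjusted p = 0.015) and 3 relatives of the factors were called in place of 0. The numbers were not taken as pairs, since the correlations of same-numbered libraries were 0.188, 0.0893 and 0.544 and MC-F7 replicate 1 correlated best with MT-F7 replicate 2 (0.412).

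Rescaling the deposited values to 1000000 per library gave, in MC-F7 and MT-F7, 2.35 and 2.78 for ELF3, 0.373 and 0.120 for GATA2, 0.275 and 0.324 for TFAP2A and 0.0963 and 0.0694 for GATA3, with 0.0434 for ELF5 in MT-F7, and the order within each group was kept.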
